A study of Mus musculus with 8 samples.

Results

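Beta-catenin (Ctnnb1) and the proteins that mark it for destruction or block its action were followed at the RNA level in mouse colon tumors and normal colon. The 9 genes were Apc, Axin1, Axin2, Gsk3a, Gsk3b, Csnk1a1, Btrc, Ctnnb1 and Ctnnbip1, chosen by symbol or older alias, and every array probe carrying one of those names was taken, which gave 21 of the 41174 probes, or 9 of 27591 genes. All 21 were among the 31871 probes that reached the detection limit on at least 4 of the 8 arrays. Apc was read by 6 probes, Csnk1a1 by 5, Ctnnb1 by 3, Gsk3b by 2 and each of the other genes by 1. No member probe was listed under an older alias.

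The tumor group was 4 colon adenomas from C57BL/6 mice heterozygous for Tcf4 and for Apc (Tcf4Het ApcHet). The normal group was 4 normal colon samples from C57BL/6 mice with both Tcf4 copies intact and likewise heterozygous for Apc (TCF4WT ApcHet). Per the labels, RNA came from the last 2.5 cm of colon of littermates carrying the Min allele of Apc, so mice of both groups have 1 mutant copy of Apc, and each sample was an independent tissue sample, titled adult with no age in days. Tissue and Tcf4 genotype changed together in every comparison, and their contributions cannot be told apart. Total RNA was labelled with Cy3 and hybridised to 1 one-colour array per sample. Values are log2 and were normalised by the authors, so 1 unit is a doubling, and the number of arrays limits their precision.

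Beta-catenin has separate jobs at the membrane and in the nucleus. It ties cadherins to the cytoskeleton, and when it accumulates it enters the nucleus and activates genes together with the TCF and LEF factors. In a resting cell the scaffolds Axin and Apc hold it beside casein kinase 1 alpha and glycogen synthase kinase 3, which phosphorylate it so that the ubiquitin ligase subunit beta-TrCP, encoded by Btrc, can bind and send it to the proteasome. Wnt binding at the receptors stops this, and in the intestine loss of the remaining Apc copy has the same effect and starts adenomas. The complex works on protein, so RNA levels say how much of each part could be made and not how active the complex is.

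Normal 3 stood apart from its group. Over the kept probes its Pearson correlation with each tumor was 0.946 to 0.967, and with normals 1, 2 and 4 it was 0.857 to 0.936. Normal 1 was intermediate as well, at 0.9181 to 0.9515 with the tumors and 0.9338 to 0.9358 with the other normals. Values without normal 3 are given for each member probe and for each gene list. For other named genes they are given where leaving it out changed a call or moved a fold by more than 1.5 times. Normal 3 was singled out by its likeness to the tumors, so leaving it out tends to widen differences. Calls without it are therefore no independent support. The probes called went from 4285 to 16474 without it, and to between 1 and 2430 without any other single sample. The columns of the value table and the scanner files under the same sample labels are not the same arrays for most samples. Only 4 columns could be traced to a scanner file. Of these, only the column of tumor 1 led to the file under its own label. The column of normal 1 led to the file labelled normal 2, and that of normal 2 to the file labelled normal 3. The column of tumor 2 led to the file labelled normal 4, a mismatch across the groups. The value table was used with its own labels. When the scanner files were used as labelled, 0.0% of 32117 probes were called (0 by limma at an adjusted p under 0.05, 631 at an unadjusted p under 0.05), and none of the member probes were, so every call below depends on the table's labels being right. The colon was checked against marker genes. All 6 epithelial and all 7 distal colon markers were above the limit in all samples, with distal colon means of 13.52 to 14.54 in tumors and 15.30 to 15.98 in normals, and 4 of the 7 fell in tumors, or 6 without normal 3. The 6 leukocyte markers averaged 11.06 to 11.72 in tumors and 9.17 to 10.16 in normals, and 2 of the 6 rose, or 4 without normal 3. Of all genes, each read by its brightest probe, 6.64% rose and 7.15% fell, or 31.7% and 19.7% without normal 3. The 7 small intestine markers averaged 8.35 to 10.50 in tumors and 9.02 to 11.06 in normals, and normal 3 was the highest. In the stroma, muscle and endothelium markers normal 3 was the lowest of all 8 samples, at 13.53, 13.72 and 8.82. The part of tissue make-up in the results was not tested. In such bulk RNA, fewer cells of a type and less RNA per cell cannot be told apart.

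With all 8 samples Axin2 was the only member that passed the test, and it was higher in tumors. Axin2 is a scaffold of the complex and is itself switched on by beta-catenin with TCF, which makes its RNA a common readout of pathway activity. Its probe (mm8, chr11:108766756-108766815) read 14.72, 15.29, 14.61 and 14.38 in tumors 1 to 4, against 12.47, 12.95, 14.16 and 12.97 in normals 1 to 4. Every tumor lay above every normal, with normal 3 only just below the lowest tumor. The means were 14.75 ± 0.39 in tumors and 13.14 ± 0.72 in normals (SD, n = 4 each), a difference of 1.61 ± 0.37 (SE), or 3.05-fold, with a 95% interval of 0.74 to 2.48 and an adjusted p of 0.0336 (limma, 2-sided, adjusted over 31871 probes). Without normal 3 the difference was 1.95, or 3.86-fold, with an adjusted p of 0.0028.

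The call on Axin2 was narrow. With the replicate number as a block the adjusted p was 0.0552, and leaving out any 1 of the tumors or of normals 1, 2 and 4 gave adjusted p values of 0.0548 to 0.0942, while its difference stayed between 1.39 and 1.95. By pairs of equal number it was higher in tumors in 4 of 4, by 2.24, 2.34, 0.455 and 1.40. The first of these pairs lay on 1 slide and the second on another slide, as far as columns could be traced. In the scanner files as labelled, relative to each array's 75th percentile, it read 3.30, 2.82, 2.67 and 2.90 in tumors and 2.89, 1.14, 1.52 and 3.88 in normals, a difference of 0.57 (limma, adjusted p = 1.0). Its rise was not extreme among all genes, since 1732 of 31871 probes (5.43%) had a larger one, 572 of them called.

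The promoters of Axin2 and of Sp5, a transcription factor gene activated by beta-catenin, are shown because both genes were higher in tumors while their start regions differ in the letters that TCF proteins bind. The RefSeq table (GRCm38.p6) gave 250 bases before to 50 after the start. The core motif searched on both strands was AACAAAG or its variant forms ATCAAAG or otherwise TACAAAG or lastly TTCAAAG, with matches in capitals. Axin2 lies at chr11:108920099-108920398 and Sp5 at chr2:70474673-70474972, both on the plus strand.
Axin2: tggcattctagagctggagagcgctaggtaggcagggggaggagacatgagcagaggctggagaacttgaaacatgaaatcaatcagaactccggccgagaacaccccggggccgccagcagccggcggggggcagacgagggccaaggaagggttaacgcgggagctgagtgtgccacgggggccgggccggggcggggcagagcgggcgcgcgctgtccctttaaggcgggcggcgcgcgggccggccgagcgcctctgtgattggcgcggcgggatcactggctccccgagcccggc
Sp5: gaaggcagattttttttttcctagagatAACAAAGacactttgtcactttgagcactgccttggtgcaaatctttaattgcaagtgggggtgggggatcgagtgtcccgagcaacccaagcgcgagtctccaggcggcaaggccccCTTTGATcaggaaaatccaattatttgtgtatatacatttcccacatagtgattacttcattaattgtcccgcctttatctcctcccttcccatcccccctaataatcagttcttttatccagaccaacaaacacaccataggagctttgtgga
The Axin2 window held no match and the Sp5 window held 2, AACAAAG on the printed strand and CTTTGAT, which is ATCAAAG on the other strand. Of all 32851 RefSeq promoter windows, 5544 (16.9%) held at least 1 match. Counted by gene, with a match in any of its windows, this was 5121 of 27025 genes (18.9%), 4 of 15 target genes (26.7%) and 1 of 5 member genes. A match is a run of letters and not a shown binding site, and no match says only that these letters are missing from this window. Sp5 was picked for display after its values were seen. It read 13.83, 13.99, 13.41 and 13.12 in tumors, against 8.14, 6.64, 12.44 and 6.81 in normals, a difference of 5.08 ± 1.21 (SE, limma adjusted p = 0.0354, 0.0524 with the replicate block). Normal 3 was far above the other 3 normals for Sp5, as it was for Axin2, and without it the difference was 6.39, or 84.1-fold instead of 33.9-fold (adjusted p = 0.0003).

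Axin1, the other Axin scaffold, differed little between the groups. Its probe (mm8, chr17:25921687-25922574) read 11.51, 11.83, 11.90 and 11.72 in tumors, against 11.99, 11.95, 11.93 and 11.89 in normals. The highest tumor lay just above the lowest normal, so the groups overlapped slightly. The difference was -0.20 with a 95% interval of -0.51 to 0.11 (limma adjusted p = 0.276, 0.256 without normal 3), so a change of the size of that of Axin2 lies outside the interval. Axin1 and Axin2 proteins can stand in for each other in mice, but only the Axin2 RNA differed by the test here, and the difference between both genes was not tested.

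**Figure D1:**
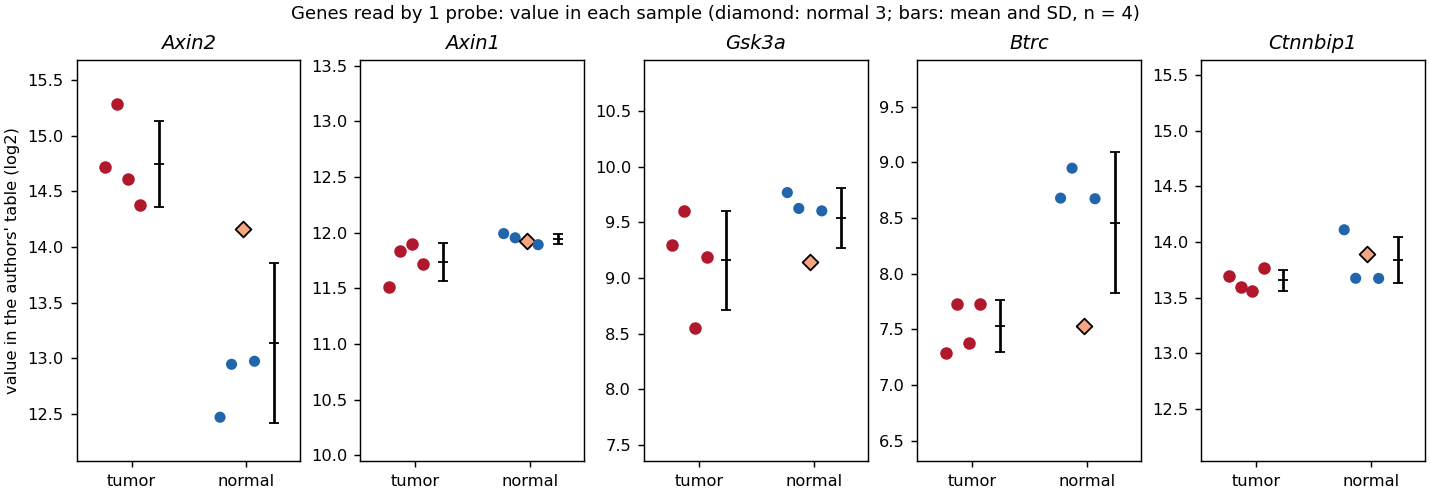
Log2 value of each sample (points) for the 5 genes read by 1 probe, tumors left and normals right, with mean and SD (bars, n = 4 each) and equal spans on all vertical axes. Axin2 is higher in all 4 tumors, normal 3 (diamond) lies nearest the tumors for Axin2, and for Btrc it lies among the tumors.

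Apc is the large scaffold whose loss starts adenomas in these mice. Its 6 probes did not move together. On mm8 they lie on chromosome 18 between 34390110 and 34446655 on the plus strand, and are numbered in that order. No annotation of that build was used here, so the exon each one reads is not given. The Min allele is a point change that leaves the transcript to be read by these probes, so they do not check the genotype labels.

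The 2 probes at the lower coordinates had higher means in tumors. Probe 1, annotated to a cDNA record and not to the RefSeq transcript, read 9.77, 9.06, 9.82 and 9.07 in tumors, against 8.67, 6.90, 9.95 and 7.14 in normals. Normal 3 had the highest value of all 8 samples. The difference was 1.27 ± 0.66 (limma adjusted p = 0.203), and 1.86 without normal 3 (adjusted p = 0.0169). Probe 2, 7.19 kb on, differed by 0.48 (adjusted p = 0.362) and by 0.80 without normal 3 (adjusted p = 0.0544).

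The other 4 probes had lower means in tumors. Probe 3, 47.6 kb from probe 1, was the dimmest, with 5.10, 6.47, 5.34 and 6.17 in tumors, against 7.49, 8.06, 5.60 and 7.83 in normals. Only 2 of the 4 tumors reached the detection limit of 5.59, so it passed the filter mainly through the normals. Of these, normal 1 lay under the background level of its own column, 7.70. It differed by -1.47 ± 0.58 (limma adjusted p = 0.128), and by -2.02 without normal 3 (adjusted p = 0.0071). Probe 4 read 9.35, 9.52, 8.89 and 9.45 in tumors, against 10.14, 10.41, 9.38 and 10.31 in normals. Here tumors lay below normals 1, 2 and 4, and normal 3 lay among the tumors. Its difference was -0.76 ± 0.26 (limma adjusted p = 0.0963), with an adjusted p of 0.0432 with the replicate block and 0.0085 without normal 3. Probe 5 shares part of its position with probe 4 and behaved likewise, at -0.72 ± 0.27 (adjusted p = 0.111, 0.0484 with the block and 0.0109 without normal 3). Probe 6, the last in the gene, differed by -0.36 (adjusted p = 0.179, and 0.0626 without normal 3).

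The contrast within Apc can be seen sample by sample. The mean of probes 1 and 2 minus that of probes 3 to 6 was 0.56, -0.52, 0.87 and -0.29 in tumors, against -1.21, -2.88, 0.64 and -2.73 in normals. All tumors lay above normals 1, 2 and 4, and normal 3 lay among the tumors. This grouping of probes was made after their values were seen and is a description without a test. A rise or a fall of Apc as a gene therefore cannot be stated from these arrays.

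**Figure D2:**
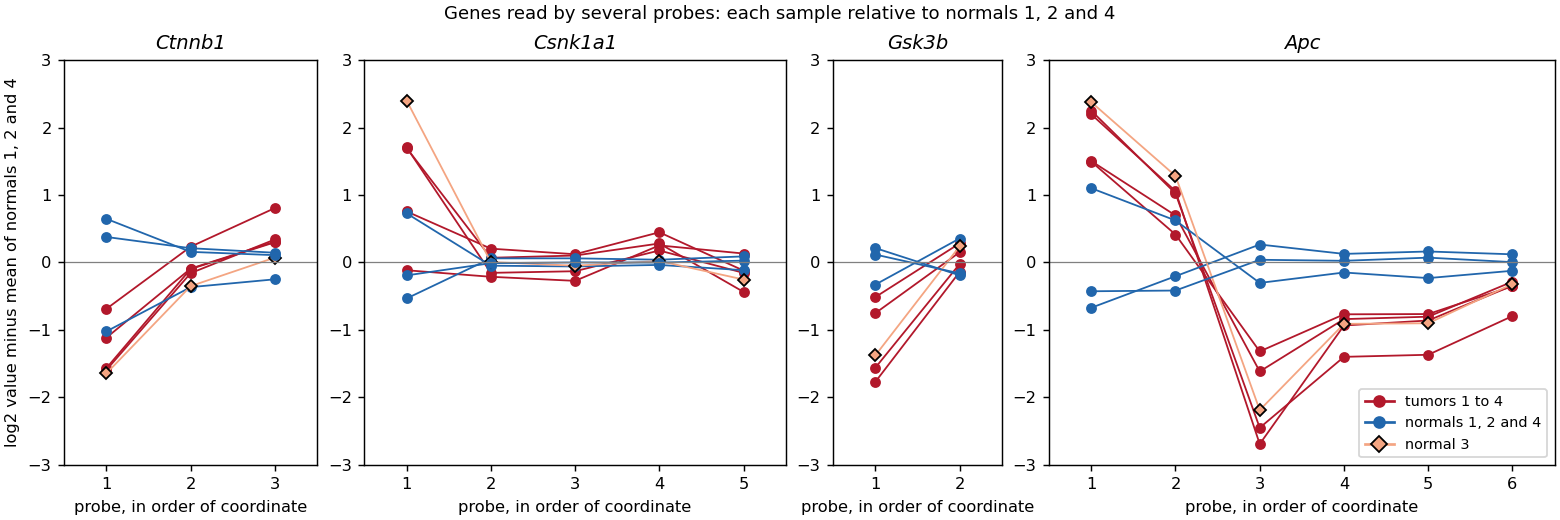
Log2 value of each sample minus the mean of normals 1, 2 and 4, for the genes read by several probes, numbered by coordinate. For Apc, tumors and normal 3 are above the other normals at probe 1 and below them at probes 3 to 6, while probes 2 to 5 of Csnk1a1 keep all samples within a narrow band.

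Glycogen synthase kinase 3 has 2 forms that phosphorylate beta-catenin within the complex. Gsk3a (mm8, chr7:24937177-24937236, minus strand) read 9.29, 9.60, 8.55 and 9.19 in tumors, against 9.77, 9.62, 9.14 and 9.60 in normals. The groups overlapped through normal 3. The difference was -0.38 with a 95% interval of -0.96 to 0.21 (limma adjusted p = 0.281, 0.125 without normal 3). Of the probes of Gsk3b on chromosome 16, probe 2 (mm8, chr16:38162670-38162729) read 10.94, 11.36, 11.05 and 11.23 in tumors, against 11.43, 10.92, 11.32 and 10.89 in normals. Those ranges lay on top of each other, with a difference of 0.01 and an interval of -0.42 to 0.43 (adjusted p = 0.982, 0.789 without normal 3). Its probe 1 (mm8, chr16:38107140-38110785) differed by -0.81 (adjusted p = 0.208), and by -1.15 without normal 3 (adjusted p = 0.0289). The difference between the Gsk3b probes was not tested.

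Casein kinase 1 alpha, encoded by Csnk1a1, makes the first phosphorylation that primes beta-catenin for the other kinase. Its 5 probes lie on mm8 chromosome 18 between 61680766 and 61715672. Probe 4 read 16.13, 16.33, 16.16 and 16.06 in tumors, against 15.84, 15.92, 15.90 and 15.88 in normals. All tumors were above all normals, but by little. The difference was 0.28 ± 0.12 (limma adjusted p = 0.150, 0.0939 without normal 3), and only the variance model with a trend and robust estimation called it (adjusted p = 0.0464). Probes 2, 3 and 5 differed by -0.03, -0.03 and -0.08, with intervals inside -0.46 to 0.30, and by -0.02, -0.05 and -0.15 without normal 3. Probe 1, annotated to a cDNA record, was the noisiest, with 12.35 to 14.17 in tumors and 11.93 to 14.87 in normals, normal 3 being the highest, and a difference of 0.41 (adjusted p = 0.668), or 1.01 without that sample (adjusted p = 0.140).

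Btrc encodes the beta-TrCP protein that recognises phosphorylated beta-catenin. Its probe (mm8, chr19:45569408-45570374) read 7.29, 7.73, 7.38 and 7.73 in tumors, against 8.68, 8.95, 7.53 and 8.67 in normals. Every tumor lay below normals 1, 2 and 4 and normal 3 lay within the tumor range. The difference was -0.93 ± 0.32 (limma adjusted p = 0.0905, 0.0711 with the replicate block). Without normal 3 it was -1.24, or 2.36-fold lower in tumors, with an adjusted p of 0.0035. The call on Btrc therefore rests on whether that sample is counted.

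Beta-catenin itself is coded by Ctnnb1, and its 2 probes annotated to the RefSeq transcript differed little. Probe 3 (mm8, chr9:120808854-120808913) read 16.56, 17.07, 16.60 and 16.57 in tumors, against 16.01, 16.41, 16.34 and 16.37 in normals. All tumors were above all normals, with tumor 2 well above the other 3. The difference was 0.42 ± 0.17, or 1.34-fold, with an interval of 0.02 to 0.82, and it missed the threshold after adjustment (limma adjusted p = 0.140, 0.0876 without normal 3). Probe 2 (mm8, chr9:120808358-120808417) read 15.49, 15.82, 15.43 and 15.49 in tumors, against 15.22, 15.80, 15.23 and 15.74 in normals. Here the groups overlapped, with a difference of 0.06 and an interval of -0.39 to 0.50 (adjusted p = 0.828, 0.908 without normal 3). Probe 1 (mm8, chr9:120804855-120804914), annotated to a cDNA record, read 9.71, 10.59, 9.68 and 10.16 in tumors, against 10.25, 11.65, 9.63 and 11.92 in normals. It pointed the other way, by -0.83 (adjusted p = 0.264) and by -1.24 without normal 3 (adjusted p = 0.0480).

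Ctnnbip1, also named ICAT, binds beta-catenin and keeps it from TCF. Its probe (mm8, chr4:148410144-148410203) read 13.69, 13.60, 13.56 and 13.77 in tumors, against 14.11, 13.67, 13.90 and 13.67 in normals. The groups overlapped, and the difference was -0.18 with an interval of -0.53 to 0.16 (limma adjusted p = 0.362, 0.410 without normal 3).

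Counted together, 1 of 21 member probes was called, the 1 that rose, against 13.4% of all kept probes (5.62% rose and 7.83% fell). A further 6 member probes had an unadjusted limma p under 0.05 only. That makes 7 of 21, against 10326 of all 31871 kept probes, so the 2 shares were close. The median difference was -0.08 over the member probes and 0.05 over all kept probes. The groups did not overlap for 3 member probes (Axin2, Csnk1a1 probe 4 and Ctnnb1 probe 3), against 22.8% of all probes. Without normal 3 the calls were 8 of 21, with 2 that rose (Axin2 and Apc probe 1) and 6 that fell (Apc probes 3, 4 and 5, Btrc, Gsk3b probe 1 and Ctnnb1 probe 1), against 51.7% of all probes (27.4% rose and 24.3% fell), and 11 of 21 did not overlap, against 55.5%. With the replicate block 2 were called, Apc probes 4 and 5, and both fell, against 11.3% of all probes (3.92% rose and 7.39% fell). With both directions counted together, the share of members called lay below that of all probes in each of these 3 settings. The share that fell was above the background without normal 3 and with the replicate block, by a margin that a single probe would close.

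**Figure D3:**
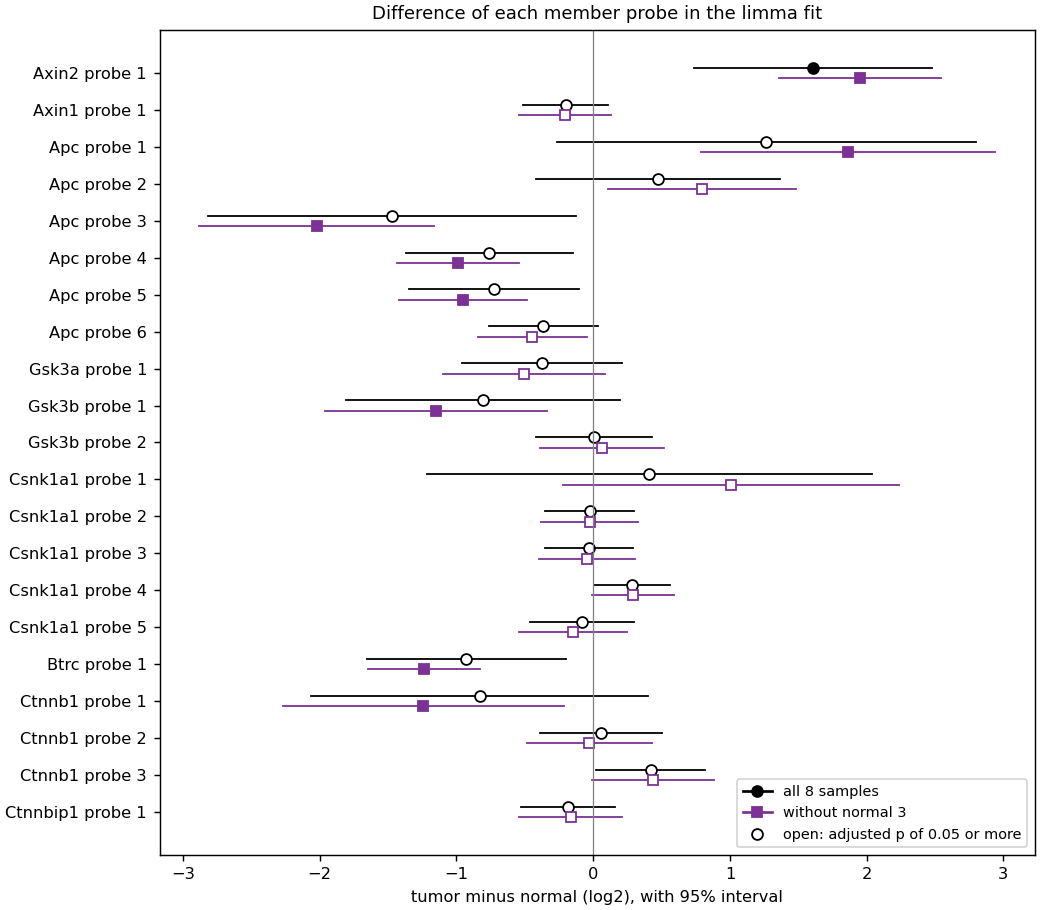
Difference, tumor minus normal in log2, of the 21 member probes with its 95% interval, for all 8 samples (circles) and without normal 3 (squares), filled where the adjusted p is under 0.05. With all 8 samples only Axin2 is filled, and without normal 3 a further 7 are.

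The genes around the complex were taken from lists of its partners, its receptors, its membrane and nuclear partners and its target genes, each gene read by its brightest probe. Of 21634 genes so read, 6.64% rose and 7.15% fell (median difference 0.15). Without normal 3 these shares were 31.7% and 19.7%, and with the replicate block 4.57% and 6.21%. Over all lists 26 of 106 measured genes rose and 9 fell, of 108 listed, and 18 of those that rose were target genes. The lists were chosen with earlier results of these data known, so the pooled counts are no independent support. Without normal 3 the pooled counts were 37 and 19, and with the replicate block 14 and 9. The call depended on single samples: leaving out normal 4, tumor 2 or tumor 3 left 0 calls by limma, leaving out normal 1 or normal 2 left 2, tumor 1 left 6, tumor 4 left 18, and leaving out normal 3 gave 56. For some genes, Lrp6, Lef1 and Tnks among those named, the brightest probe is annotated to a cDNA record. Their other kept probes are not given.

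**Figure D4:**
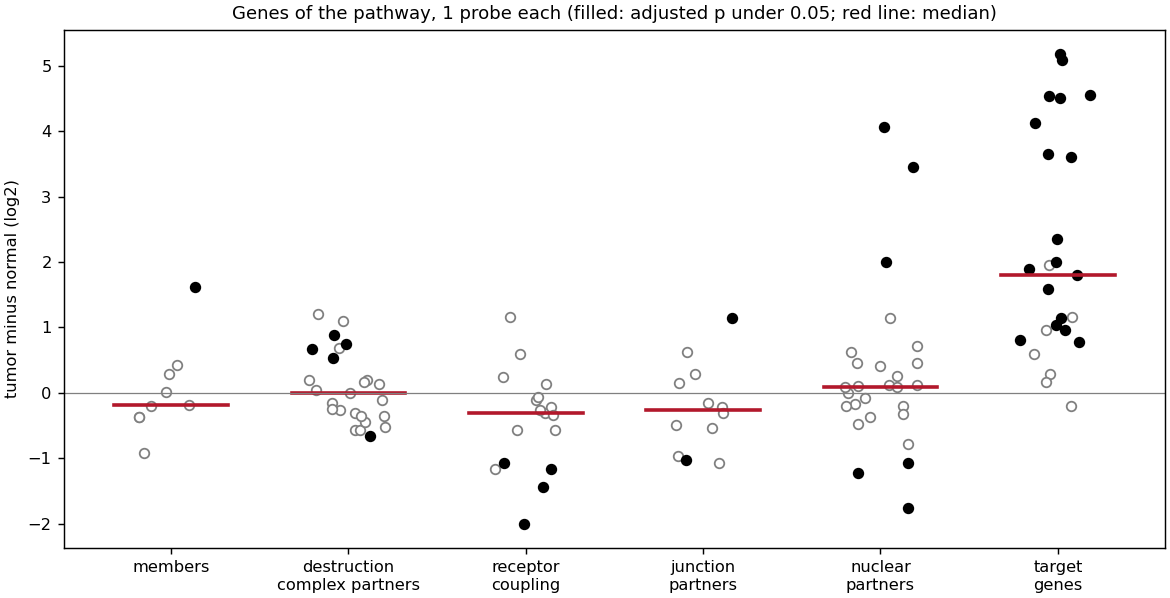
Difference, tumor minus normal in log2, of each gene by list, filled where the adjusted p is under 0.05, with the median of each list as a red line. The target genes have a median of 1.81 and no filled point below 0. The medians of the other lists run from -0.32 for receptor coupling, where 0 rose and 4 fell, to 0.08 for nuclear partners.

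Among the other parts and regulators of the destruction complex, 4 of 25 rose and 1 fell (median -0.0013), or 6 and 5 without normal 3. Those that rose were Tnks and Tnks2, which encode the tankyrases that mark Axin for degradation, and Rbx1 and Skp1a, subunits of the ligase that carries beta-TrCP. Tnks2 read 15.70, 15.91, 15.42 and 15.39 in tumors, against 14.59, 14.63, 15.06 and 14.58 in normals. It rose by 0.89 ± 0.18 (limma adjusted p = 0.0254), and Tnks by 0.53 (adjusted p = 0.0452). Rbx1 rose by 0.68 (adjusted p = 0.0348) and Skp1a by 0.75 (adjusted p = 0.0384). Cul1, the ligase's own scaffold, went the other way, with 11.42, 11.48, 11.45 and 11.63 in tumors, against 12.22, 12.38, 11.93 and 12.12 in normals. It fell by 0.66 (adjusted p = 0.0276), so subunits of 1 ligase moved in opposite directions. With the replicate block none of these 5 was called, with adjusted p values of 0.0547 to 0.0738.

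The close relatives of the members were not called. Apc2, the relative of Apc, differed by 1.20 (limma adjusted p = 0.209), and Csnk1e stood 2.15-fold higher in tumors (adjusted p = 0.0519). The relative of Btrc, Fbxw11, differed by -0.31 (adjusted p = 0.211). Csnk1d sat at -0.001 with an interval of -0.29 to 0.29 (adjusted p = 0.994). Without normal 3, Apc2, Csnk1e and Fbxw11 were called, at adjusted p values of 0.0191, 0.0168 and 0.0488.

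Of the genes that link Wnt receptors to the complex, 0 of 17 rose by limma and 4 fell (median -0.32), or 2 and 6 without normal 3. Frat1 and Frat2 encode proteins that bind glycogen synthase kinase 3 and take it from Axin. Frat1 read 11.72, 11.11, 11.35 and 11.84 in tumors, against 12.47, 12.76, 12.57 and 12.52 in normals. All tumors were below all normals, and it fell by 1.07 (limma adjusted p = 0.0201), as Frat2 did by 1.16 (adjusted p = 0.0428). Lrp6, the co-receptor that recruits Axin, read 9.42, 9.17, 8.73 and 9.46 in tumors, against 10.78, 10.90, 9.76 and 11.08 in normals. It fell by 1.44 (adjusted p = 0.0299), by a probe annotated to a cDNA record and not to the RefSeq transcript. Cxxc4 encodes an inhibitor that binds Dishevelled, and it was under the detection limit in all 4 tumors. Its mean was 4.90 in tumors and 6.90 in normals, which is 2.49-fold lower in tumors when the limit stands in for their level (limma adjusted p = 0.0262). This fold is no firm lower bound, since normal 1, at 6.56, lay under the background level of its own column, 7.70. Normal 3, at 5.78, was just above the limit. Cxxc4 passed the filter on dim probes only through the normals, so its call is no support for the list, and 3 others fell. With the replicate block 4 also fell, with Dixdc1 (adjusted p = 0.0451) in place of Frat2 (adjusted p = 0.0595). By the fit without a block Dixdc1 differed by -1.17 (limma adjusted p = 0.0671), and by -1.44 without normal 3 (adjusted p = 0.0102).

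Of the membrane partners, 1 of 12 rose and 1 fell (median -0.26), or 1 and 5 without normal 3. Cdh5, the cadherin of blood vessel walls, read 11.13, 11.67, 11.25 and 11.60 in tumors, against 9.96, 10.51, 10.03 and 10.59 in normals, and rose by 1.14 (limma adjusted p = 0.0216). The other endothelial markers, Pecam1 and Kdr, differed by -0.44 and 0.20, and neither was called, but without normal 3 Pecam1 fell by 0.96 (adjusted p = 0.0479). Cdh17, the cadherin of intestinal epithelium, fell by 1.02 (adjusted p = 0.0264). Cdh1, which encodes E-cadherin and holds beta-catenin at the epithelial membrane, read 16.83, 16.95, 16.68 and 17.08 in tumors, against 17.08, 17.76, 16.95 and 17.71 in normals, a difference of -0.49 (adjusted p = 0.175). Jup, the close relative of beta-catenin in junctions, differed by -0.96 (adjusted p = 0.0953), and fell by the fit with the replicate block (adjusted p = 0.0328). Ctnnd1, which encodes p120-catenin, differed by -0.54 (adjusted p = 0.155). Without normal 3 Cdh1, Jup and Ctnnd1 were all lower in tumors by the test (adjusted p = 0.0394, 0.0145 and 0.0384). Beside these, the epithelial marker list, which holds Cdh1 too, averaged 17.58 to 17.75 in tumors and 17.71 to 18.09 in normals, with 0 of 6 called by limma (1 rose and 3 fell without normal 3), and its part in the junction genes was not tested.

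In the nucleus, 3 of 27 partners rose and 3 fell (median 0.08), or 7 and 3 without normal 3, and the DNA-binding partners of beta-catenin split. Lef1 read 12.45, 13.39, 12.23 and 12.18 in tumors, against 8.02, 8.64, 11.26 and 8.53 in normals. It rose by 3.45 ± 0.70 (limma adjusted p = 0.0243). Tcf7 rose 3.99-fold (adjusted p = 0.0252), and Sox17, whose protein binds beta-catenin, by 4.07 (adjusted p = 0.0377, 0.0531 with the replicate block). Tcf7l2 read 12.99, 12.70, 12.33 and 13.20 in tumors, against 14.42, 14.85, 14.19 and 14.79 in normals. It is the gene called Tcf4 in the genotypes, and it fell by 1.75 ± 0.24, or 3.37-fold (adjusted p = 0.0145). Tumor mice carry 1 altered copy of this gene, and what part of the fall is due to genotype and what to tissue cannot be told apart. Tcf7l1 fell by 1.23 (adjusted p = 0.0448), and Tle4, a co-repressor that TCF proteins bind in the absence of beta-catenin, by 1.07 (adjusted p = 0.0232). Normal 3 was close to the tumors for Lef1, Tcf7 and Sox17 and close to the other normals for Tcf7l2 (14.19). Without it Lef1 was 17.9-fold higher in tumors instead of 10.9-fold, and Sox17 35.1-fold instead of 16.8-fold.

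The target genes of beta-catenin rose most often, at 18 of 25 with none that fell (median 1.81, against 0.15 for all genes). The list was chosen with earlier results of these data known, so this count is no independent support. It includes Notum, which reached the detection limit in 4 tumors but only 2 normals, so it passed the filter mainly through the tumors. The difference of Notum was 4.51, and 5.77 without normal 3, and both values take in normals 2 and 4, which were under that limit. With the replicate block 11 rose, and without normal 3 21 did. Dkk3 read 12.77, 13.17, 12.81 and 12.19 in tumors, against 10.53, 11.12, 11.34 and 10.72 in normals, and rose by 1.81 ± 0.27 (limma adjusted p = 0.0151). Cd44, a surface receptor of crypt base cells, rose by 1.90 (adjusted p = 0.0210). Ephb3, which keeps crypt cells in position, rose by 0.80 (adjusted p = 0.0212). Rnf43, a ligase that removes Wnt receptors, read 15.95, 16.63, 15.97 and 15.73 in tumors, against 14.10, 14.28, 15.30 and 14.28 in normals, and rose by 1.58 (adjusted p = 0.0237). The 7 that were not called were Lgr5, Nkd2, Ascl2, Ephb2, Fgf20, Sp8 and Lrp4, and of these only Nkd2 had a difference below 0, at -0.20. Lgr5, Ascl2 and Fgf20 rose without normal 3. The mean of all 25 genes was 12.83, 13.24, 12.79 and 12.65 in tumors, against 10.13, 10.23, 12.15 and 10.27 in normals. Normal 3 again lay next to the tumors. The mean of the members, by contrast, was 12.34 to 12.72 in tumors and 12.43 to 12.50 in normals. The leukocyte markers Cd68 and S100a8 and the stromal marker Vim rose in the same tumors, by 1.61, 5.41 (6.31 without normal 3) and 1.63, and their part in the target gene result was not tested.

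**Figure D5:**
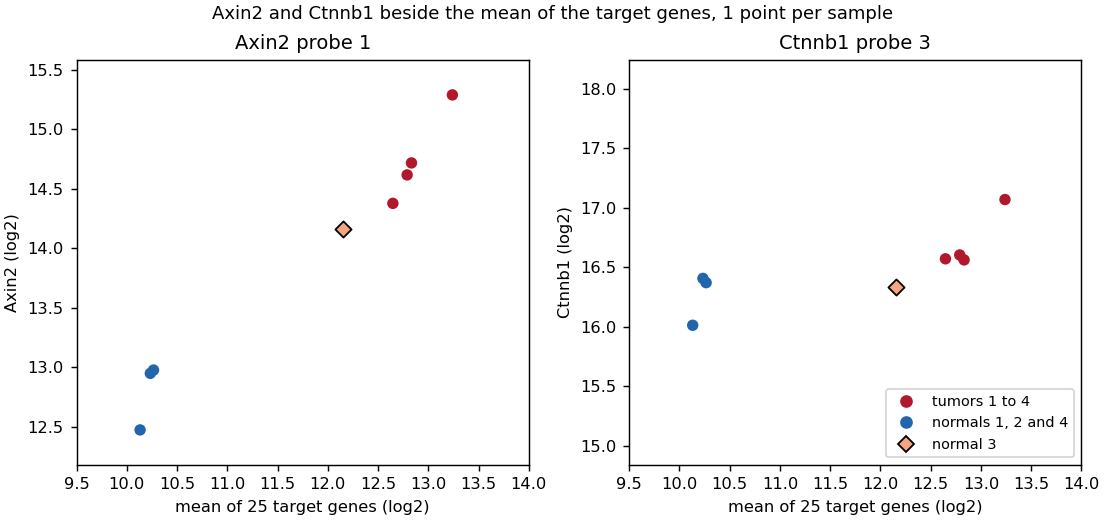
Log2 value of Axin2 and of Ctnnb1 probe 3 (vertical axes, equal spans) beside the mean of the 25 target genes (horizontal axes) in each of the 8 samples. Axin2 and the target mean are both highest in tumor 2 and both lowest in normal 1, normal 3 lies between the tumors and the other normals for both, and Ctnnb1 spans 16.01 to 17.07.

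The genes whose pattern was most like that of Axin2 over the 8 samples, among 17454 genes, were Gpc1, Tbx1, Arvcf, Smyd3 and Lef1, with Pearson correlations of 0.997, 0.995, 0.995, 0.994 and 0.993. All 5 rose in tumors with all 8 samples. Their choice by likeness to Axin2 in the same samples favours such a rise, so this count is no separate support. Arvcf and Smyd3 missed the threshold with the replicate block (limma adjusted p = 0.0601 and 0.0768). For Ctnnb1 probe 3 they were Zbtb12, Khdrbs1, Clasp1, Chtop and Las1l, at 0.992, 0.986, 0.986, 0.982 and 0.982. None of these 5 was called, with differences of 0.29 to 0.55. The 8 points share arrays, normalisation and the split into groups, so these correlations are descriptions.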

How the data were processed

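Total RNA of 4 colon tumors and 4 normal colons was measured on one-colour Agilent arrays. The authors deposited a table of log2 values, 1 column per sample. Every column had a median of 8.51 and a 75th percentile of 11.40, as quantile normalisation leaves. The authors also deposited scanner intensity values for each sample, extracted with Agilent Feature Extraction 9.5.1.1 per the file headers, while the submitters' processing notes name version 10.1.1.1. Table columns were matched to scanner files by rank correlation.

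Probes were named from the scanner files and updated through RefSeq accessions and symbols. A probe was kept when it reached a limit of 5.59 on at least 4 arrays. For every traced column, a 95th percentile was taken over its own probes that did not exceed background. The limit is the median of these levels, which were 4.50 in tumor 1, 5.35 in tumor 2, 7.70 in normal 1 and 5.82 in normal 2. Values of normal 1 between 5.59 and 7.70 may therefore be background. The untraced columns have no such level, so how far their dim values exceed background was not tested. Differences, tumor minus normal, were tested by lmFit and eBayes of limma 3.58.1 (R 4.3.3), 2-sided and adjusted by Benjamini-Hochberg over 31871 probes at a threshold of 0.05. The script was tested on simulated data with 4 samples per group. It recovered 51 of 100 planted changes of 2 log2 units and 81 of 100 of 3 units, with 7 false calls. A gene that was not called may therefore still differ.

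Members and lists were chosen with earlier results of these data known. Named list genes were the 4 with the smallest adjusted p in each list and the members' close partners, and the other list genes named (Tnks, Tcf7l1, Sox17, Dixdc1, Sp5, the uncalled targets and the markers) were added after values were seen.

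Titles number tumors and normals 1 to 4. Deviations from group means of same-numbered samples correlated at 0.227, 0.390, 0.565 and 0.381, so the number was also fitted as a block. The labels do not say what the number marks, and tumor 4 with normal 2 gave 0.392. Alternatives were the filter, centring, variance model, the scanner files with and without slide as a block, and leaving out each sample. The block without normal 3 was added after seeing the data.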

Additional observations from a re-analysis of the deposited data

Results flagged for a closer look

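Samples far from the other 3 of their group were looked for in the 42 groups of 4 values that the 21 member probes give, with Dixon's gap over range. Chance alone marks about 1 group in 20. Apc probe 5 in tumor 3 was the lowest tumor, at 9.72, with a gap of 0.842 of the range. Apc probe 6 in tumor 3 was the lowest tumor as well, at 11.21, with a gap of 0.868. Ctnnb1 probe 3 in tumor 2 was the highest tumor, at 17.07, with a gap of 0.918.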

How the results depend on the processing

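With all 8 samples the fit called 4285 probes, 1 member probe and 35 list genes. Centring, the filters, the brightest probe and the trended robust variance model gave 3057 to 5465 probes or genes, with 1 member probe (2 with the trended model) and 27 to 42 list genes. The replicate block gave 3605, 2 and 23, and the block without normal 3 gave 12997, 8 and 48. The block with all 8 samples lost Axin2, Tnks, Tnks2, Cul1, Rbx1, Skp1a, Frat2, Sox17, Sp5, Arvcf and Smyd3 among the genes named, and gained Apc probes 4 and 5, Jup and Dixdc1. Leaving out 1 sample gave 1 to 16474 probes, 0 to 8 member probes and 0 to 56 list genes. Leaving out any 1 of the 7 samples other than normal 3 left 0 member probes called by limma, with 1 to 5 at an unadjusted p under 0.05. In the same fits 7444 to 8916 of all kept probes had an unadjusted p under 0.05. The scanner values as labelled gave 0, 0 and 0 by limma in each of 3 treatments (631, 459 and 728 probes at an unadjusted p under 0.05), and the cause was not tested.

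In the scanner values as labelled, with and without the slide as a block, these differences (tumor minus normal, log2) turned sign: Csnk1a1 probe 3 at 0.0095, Csnk1a1 probe 5 at 0.102, Ctnnb1 probe 1 at 0.0826, Ctnnb1 probe 2 at -0.0177, Gsk3a probe 1 at 0.12, Gsk3b probe 2 at -0.225, Rbx1 at -0.0964, Csnk1e at -0.0412, Frat1 at 0.123, Cxxc4 at 0.863, Frat2 at 0.152, Cdh17 at 0.394, Ctnnd1 at 0.323, Dkk3 at -0.0079, Ephb3 at -0.0142, Gpc1 at -0.0025, Smyd3 at -0.191, Zbtb12 at -0.058, Khdrbs1 at -0.0408, Chtop at -0.0334, Las1l at -0.0566. With normexp and quantile normalisation of those values these turned sign: Csnk1a1 probe 2 at 0.0047, Csnk1a1 probe 3 at 0.0287, Csnk1a1 probe 4 at -0.0346, Csnk1a1 probe 5 at 0.0821, Ctnnb1 probe 2 at -0.0676, Gsk3b probe 2 at -0.233, Rbx1 at -0.139, Csnk1e at -0.0287, Frat1 at 0.123, Cxxc4 at 0.343, Frat2 at 0.186, Cdh17 at 0.376, Ctnnd1 at 0.216, Dkk3 at -0.0172, Gpc1 at -0.0111, Smyd3 at -0.158, Zbtb12 at -0.0605, Khdrbs1 at -0.0213, Clasp1 at -0.0083, Chtop at -0.0209, Las1l at -0.0584. Csnk1d was 0.0072 with the block and without normal 3. Leaving out 1 sample gave -0.1012 to 0.0378 for Csnk1a1 probe 2, -0.0886 to 0.043 for Csnk1a1 probe 3, -0.175 to 0.0151 for Csnk1a1 probe 5, -0.0342 to 0.158 for Ctnnb1 probe 2, -0.0774 to 0.104 for Gsk3b probe 2 and -0.0581 to 0.0312 for Csnk1d. Axin2, Apc, Axin1, Btrc, Ctnnb1 probe 3, Ctnnbip1 and Gsk3b probe 1 kept their sign in every setting run. With the limit on all 8 arrays Apc probe 3 had no value, and with 1 probe per gene only the brightest had one.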
